A study of Mus musculus with 45 samples.

Results

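The interferon-response genes described here are Oas1g, Ifi202b, Ifit1, Ifit3, Isg15, Irf1, Irf7, Ifi35 and Usp18, 9 genes of mouse that cells switch on when they meet an interferon. A gene entered the description where a probe set of the array was annotated to its symbol and to no other. This held for 8 of the 9 genes. They were read by 8 of 22626 probe sets in the table of passages 4, 6 and 16, and by 7 of 22626 in the table of passage 10, 1 probe set to a gene. Isg15 was dropped, because the 1 probe set paired with it in the passage 10 table was shared with another gene symbol. The probe set of Oas1g was annotated to that gene in the first table and to Oas1a, its neighbour and paralogue on chromosome 5, in the other. Its values are therefore uncertain between near-identical copies, and they are given as Oas1g at passages 4, 6 and 16 and as Oas1a, outside the members, at passage 10.

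The 45 arrays measured RNA from induced pluripotent stem cell (iPSC) lines of 2 mice, 3 clones in each of 15 groups. All lines came from a secondary reprogramming system, in which somatic cells that already carry the reprogramming factors are made pluripotent, and all were cultured on irradiated embryonic fibroblasts in serum and LIF and preplated to remove those feeder cells. From mouse 1 came granulocyte-derived lines at passages 4 and 16 and lines of skeletal muscle precursors at passage 6. From mouse 2 came lines of tail tip fibroblasts (TTF), splenic B cells, T cells and bone marrow granulocytes at passages 4, 10 and 16. No group held a line without reprogramming, an embryonic stem cell line or cells treated with interferon. Strain and age of the mice, the factors and their promoter are not given in the sources used here. Each group is 3 clones of 1 animal, and the p-values say nothing of the spread between mice.

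Interferons are secreted proteins that bind receptors on the cell surface, where Janus kinases phosphorylate STAT proteins. Activated transcription factors then bind promoters at the interferon-stimulated response element (ISRE) or at the gamma-activated site (GAS). Among the members, Irf1 and Irf7 are transcription factors that bind ISRE-like elements themselves, and Irf7 drives the genes of type I interferons. Oas1g, Ifit1, Ifit3, Ifi202b and Ifi35 are effectors, and Usp18 is a feedback inhibitor that removes ISG15 from proteins and blocks the type I receptor. Pluripotent stem cells are known for a muted interferon response, which strengthens as they differentiate.

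The promoter sequences show which of these elements stand at each gene. RefSeq windows of 300 bases, from 250 before to 50 after a gene's start in GRCm38.p6, were matched for 8 of the 9 genes, Usp18 being the exception. The ISRE core was searched as GAAA, any 2 bases, then GAAA again, and the GAS as TTCNNNGAA, on both strands, counting overlapping matches. The core stood in 3.44% of 32851 windows of all genes, in the windows of 4 of 8 of the proposed members and in those of 25 of 51 other interferon-stimulated genes. For Oas1g, Ifit1 and Ifit3, the stretch that holds the matches is printed 5′ to 3′ on the gene's strand, with the ISRE cores in capitals.
Oas1g: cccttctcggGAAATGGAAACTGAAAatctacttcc
Ifit1: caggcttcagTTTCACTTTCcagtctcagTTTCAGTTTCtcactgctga
Ifit3: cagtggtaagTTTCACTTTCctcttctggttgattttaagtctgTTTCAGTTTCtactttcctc
The Oas1g window is chr5:120887564-120887863 on the minus strand, and its 2 overlapping cores begin 18 and 12 bases before the start. The Ifit1 window, chr19:34640639-34640938 on the plus strand, holds cores 104 and 85 bases before the start. The Ifit3 window, chr19:34583279-34583578 on the plus strand, holds them 156 and 122 bases before it. In the Ifit genes the core lies in the opposite orientation, as the printed letters TTTC show.

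The GAS letters stood in 8.3% of all windows and in those of 3 of the 8 proposed members with a window, Isg15 included. These are shown with the GAS match in capitals, because the genes include the only member among them with a large passage change, Ifi202b.
Ifi202b: ctgtcatgatTTCTCAGAAtaactactga
Irf1: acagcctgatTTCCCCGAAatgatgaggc
Ifi35: agaagcagaaTTCACAGAAatgaaagtgg
They lie in chr1:173982795-173983094 on the minus strand for Ifi202b, 148 bases before the start, and in chr11:53769764-53770063 on the plus strand for Irf1, 90 bases before the start. For Ifi35 the match begins at base 8 after the start in chr11:101448162-101448461, on the plus strand. Irf1 has another window, chr11:53770223-53770522, without a match. A match of letters describes the sequence and is not a measured binding site.

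The values are log2 probe set intensities after RMA, a method that corrects, normalizes and summarizes the probes of an array set. A difference of 1 on this scale is a doubling. Probe sets differ in how brightly they bind, so no member's level is set against another's. In the table of passages 4, 6 and 16, the mean over all 33 arrays stood at percentile 71.6 of all probe sets for Irf1 and 53.2 for Oas1g. It stood at 14.0 for Ifit1 and 17.7 for Usp18, with the remaining members between. The files give no detection calls, so it is not known whether the dimmest members were above background.

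Oas1g and Ifi202b were the members that varied most among the arrays. Their SD over the 33 arrays was 0.88 and 0.66, at percentiles 98.3 and 92.4 of all probe sets, while that of Irf1 was 0.28, at percentile 29.9. Averaged over the arrays, 9 of 9 measured pluripotent markers in the first table and 10 of 10 in the other stood above the table's median. Of the markers of the source cells, 0 of 9 granulocyte, 0 of 9 T cell and 1 of 8 B cell genes did so at passages 4, 6 and 16, and 0 of 9, 1 of 9 and 1 of 8 at passage 10. Among fibroblast and feeder markers, 12 of 17 and 15 of 20 did, and these levels are given beside the results they move with. An array correlated with the others of its group at 0.9206 or more, the lowest value being that of granulocyte clone 3 of mouse 2 at passage 16, which stands apart in several members.

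**Figure D1:**
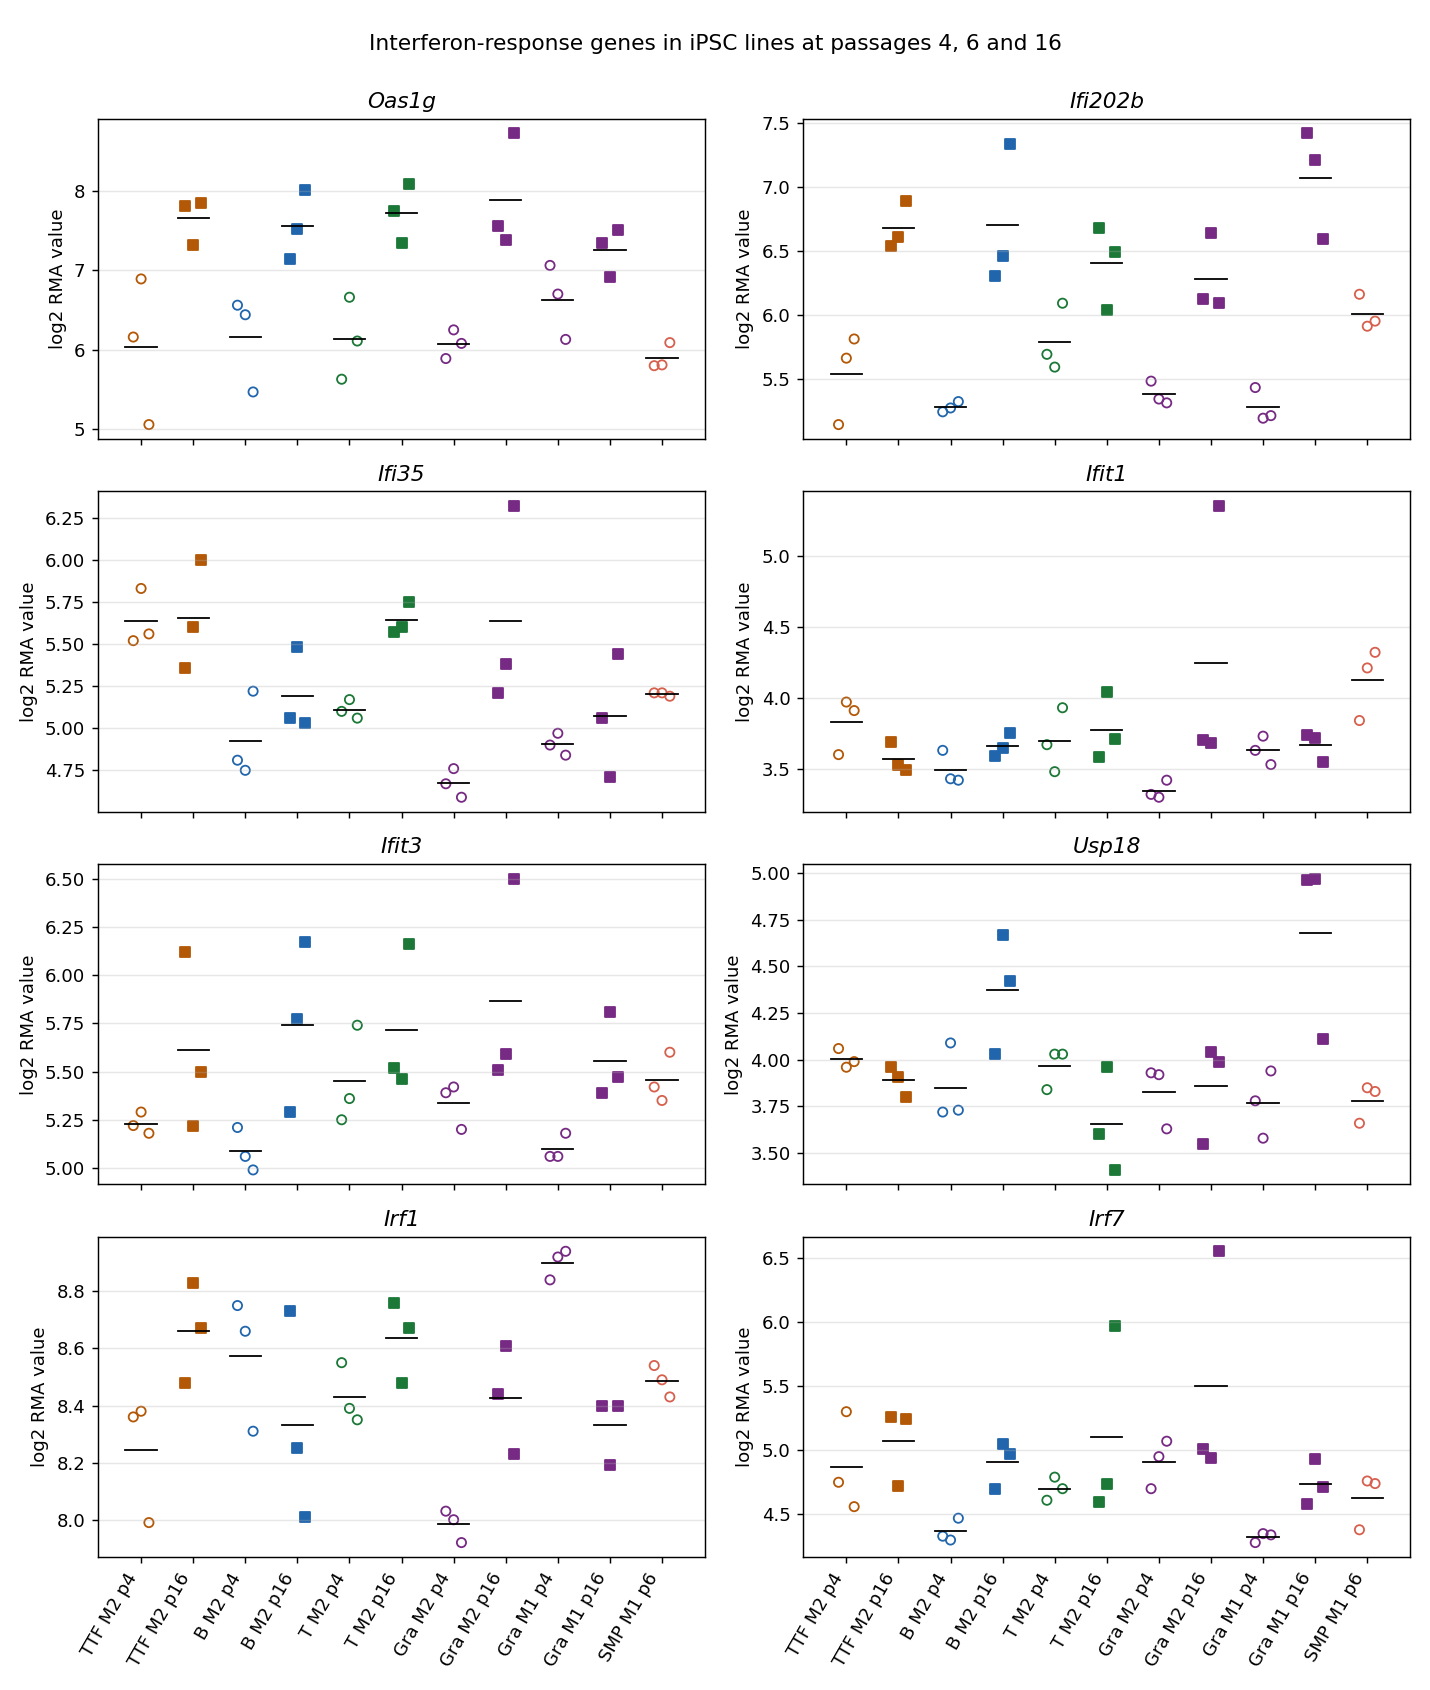
Log2 RMA value (y axis) of each of the 8 members in every array of passages 4 and 6 (open circles) and 16 (filled squares), by group on the x axis, with M1 and M2 for the mice and the group mean as a bar. Oas1g is at most 6.89 at passage 4 and at least 7.14 at passage 16 in mouse 2, and the highest values of Ifit1 (5.35), Irf7 (6.55) and Ifit3 (6.50) belong to 1 array, granulocyte clone 3 of mouse 2 at passage 16.

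From passage 4 to passage 16, the members of mouse 2 that changed all rose. Averaged over the 4 origins, Oas1g rose by a log2 of 1.61 ± 0.19 (SE, 3.05-fold) and Ifi202b by 1.02 ± 0.12 (2.03-fold), and Ifi35, Ifit3 and Irf7 rose by less. In limma's fit over all 33 arrays, 5 of 8 members passed a Benjamini-Hochberg adjusted p under 0.05 (called), 5 of them higher and 0 lower. Of all 22626 probe sets, 29.4% were called in this comparison and 15.0% were higher. The median change was 0.05 over all probe sets and 0.44 over the 8 members. The members were chosen with earlier results of these data known, so this contrast is a description and not a test.

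Oas1g makes the oligoadenylate messenger that activates RNase L, which degrades RNA in infected cells. In TTF lines, clones 1, 2 and 3 read 6.16, 6.89 and 5.06 at passage 4 and 7.81, 7.32 and 7.85 at passage 16. In B cell lines they read 6.56, 6.44 and 5.47, then 7.14, 7.52 and 8.01. Every late array of these origins lay above every early one, and clone 3 was the lowest early line in both. In T cell lines Oas1g read 5.63, 6.66 and 6.11, then 7.74, 7.34 and 8.08. In granulocyte lines of mouse 2 it read 5.89, 6.25 and 6.08, then 7.56, 7.38 and 8.72. Over the 4 origins the 12 early arrays ran from 5.06 to 6.89 with a median of 6.14, and the 12 late ones from 7.14 to 8.72 with a median of 7.65, so the passages did not overlap. Taking clone numbers as names of lines is an assumption, made for every count of lines here and below. On it, Oas1g rose in 12 of 12 lines, by 0.43 to 2.79.

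The rise of Oas1g was called in each origin of mouse 2. It came to 1.63 ± 0.38 in TTF lines (adjusted p = 0.0063), 1.40 ± 0.38 in B cell lines (0.021), 1.58 ± 0.38 in T cell lines (0.0048) and 1.81 ± 0.38 in granulocyte lines (0.00097). Of all probe sets, 10.3%, 9.0%, 16.7% and 34.6% were called in these comparisons, in that order. The TTF call rests on early clone 3, the lowest array, without which the rise was 1.14 (adjusted p = 0.060), and it was lost with only the TTF groups in the fit (0.079). The B cell call was lost without early clone 3 (1.06, adjusted p = 0.13) and without late clone 3 (1.17, adjusted p = 0.14), and with the clone number as a block (0.076). The average over origins kept its call whichever array was left out, between 1.48 and 1.71. The F-test of unequal change among origins gave an adjusted p of 0.92 for Oas1g, and it called 0 of 8 members against 31.6% of all probe sets. At an unadjusted p under 0.05 it had 4 of 8, Irf1, Ifi35, Ifit1 and Usp18, and without granulocyte clone 3 at passage 16 it called Irf1 (adjusted p = 0.026).

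Ifi202b encodes a DNA-binding protein of the p200 family, a mouse antagonist of the DNA sensor AIM2. Its probe set is of a kind that can match several transcripts. In TTF lines clones 1, 2 and 3 read 5.14, 5.66 and 5.81 at passage 4 and 6.54, 6.61 and 6.89 at passage 16. In B cell lines they read 5.24, 5.27 and 5.32, then 6.30, 6.46 and 7.34. These origins showed a clean gap between the passages, widest in B cell lines. In granulocyte lines of mouse 2 the values were 5.48, 5.34 and 5.31, then 6.12, 6.64 and 6.09. In T cell lines they were 5.69, 5.59 and 6.09, then 6.68, 6.04 and 6.49. Only the T cell lines overlapped, late clone 2 lying just under early clone 3. On the same assumption about clone numbers, Ifi202b rose in 12 of 12 lines of mouse 2, by 0.40 to 2.02.

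The rise of Ifi202b came to 1.42 ± 0.24 in B cell lines (adjusted p = 0.00058), 1.14 ± 0.24 in TTF lines (0.002) and 0.91 ± 0.24 in granulocyte lines (0.0048). In T cell lines the difference was 0.62 ± 0.24 and did not pass the test (adjusted p = 0.074). These sizes were not shown to differ, since the F-test of unequal change gave an adjusted p of 0.21. Over the 4 origins the rise ranged from 0.94 to 1.07 when any 1 array was left out and stayed called.

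Ifit3, Ifi35 and Irf7 rose less, on average over the origins. Ifit3, a partner of Ifit1 in binding viral RNA, rose by 0.46 ± 0.12 (adjusted p = 0.0056) and was higher in 11 of 12 lines. Its 12 early arrays ran from 4.99 to 5.74 with a median of 5.24, and its late ones from 5.22 to 6.50 with a median of 5.56. The passages overlapped, and the late values included 1 clone above 6 in each origin, which read 6.12 in TTF lines, 6.17 in B cell lines, 6.16 in T cell lines and 6.50 in granulocyte lines. Ifi35, an interferon-induced leucine zipper protein, rose by 0.44 ± 0.11 (adjusted p = 0.0028), and 9 of 12 lines were higher. Its early arrays spanned 4.59 to 5.83 and its late ones 5.03 to 6.32. Most of that average came from T cell and granulocyte lines, while TTF lines, already high at passage 4, differed by 0.02 ± 0.21.

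Irf7 was higher by 0.43 ± 0.16 on average (adjusted p = 0.037), in 8 of 12 lines. Its late values were spread out: granulocyte clone 3 read 6.55 and T cell clone 3 read 5.97, while the other late arrays of mouse 2 lay between 4.60 and 5.26. The early ones lay between 4.30 and 5.30. The call of Irf7 was lost in 12 of 24 fits that left out 1 array. These were the fits without TTF clones 1 or 3 at either passage, B cell clones 1 or 2 at passage 4 or 2 or 3 at passage 16, T cell clone 1 at passage 4 or 3 at passage 16, and granulocyte clone 1 at passage 4 or 3 at passage 16. The adjusted p ran from 0.013 to 0.083 over the 24, and without granulocyte clone 3 at passage 16 the difference was 0.30.

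Irf1, Ifit1 and Usp18 did not pass the test on average over the origins. Irf1 differed by 0.21 ± 0.08 (adjusted p = 0.05), and without the array of granulocyte clone 3 at passage 16 by 0.23 ± 0.08, which did pass (0.025). Ifit1, which binds the end of viral RNA, differed by 0.22 ± 0.13 (adjusted p = 0.19). Usp18 differed by 0.03 ± 0.10 (adjusted p = 0.82), with higher values in 5 of 12 lines.

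**Figure D2:**
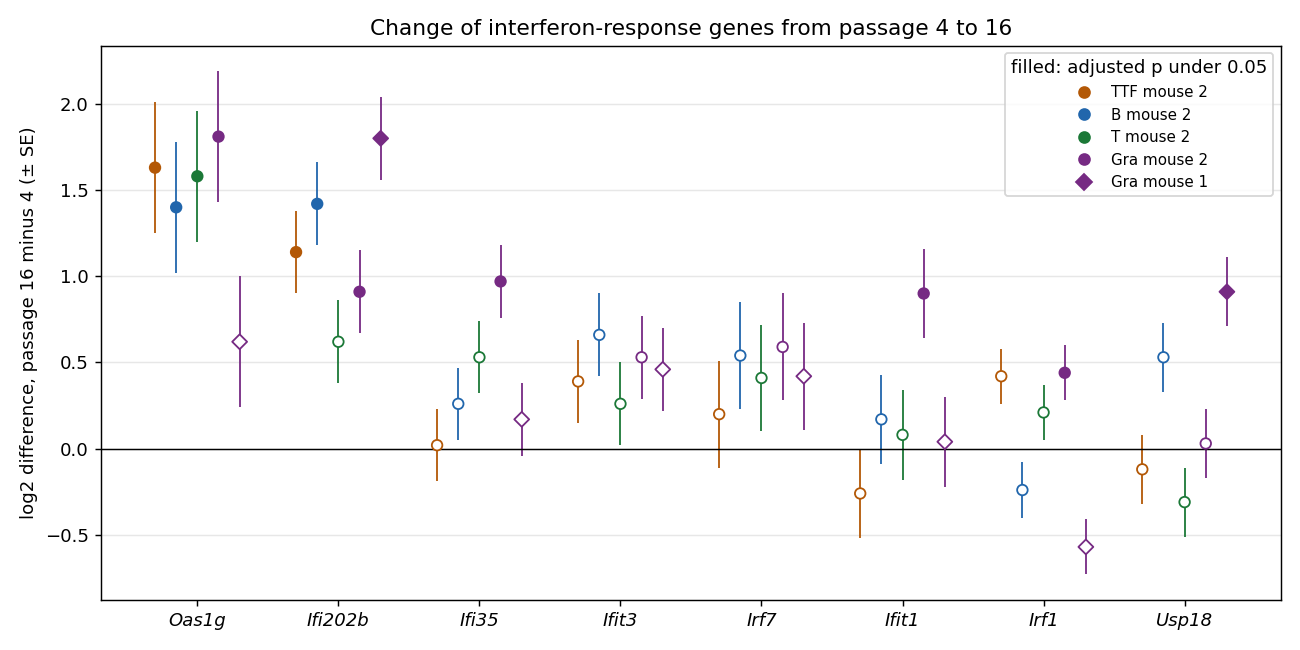
Log2 difference between passages 16 and 4 (y axis, ± SE of the model) for each member on the x axis, in the 4 origins of mouse 2 (circles) and in granulocyte lines of mouse 1 (diamonds), filled where the adjusted p was under 0.05. Oas1g lies between 1.40 and 1.81 in mouse 2 and at 0.62 in mouse 1, Ifi202b reaches 1.80 in mouse 1, and Irf1 has differences on both sides of 0.

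Granulocyte lines of mouse 2 had the most members called, 5 of 8, all higher, in a comparison that called 34.6% of all probe sets. Besides Oas1g and Ifi202b these were Ifi35 (0.97 ± 0.21, adjusted p = 0.0014), Ifit1 (0.90 ± 0.26, 0.0094) and Irf1 (0.44 ± 0.16, 0.032). Ifi35 read 4.67, 4.76 and 4.59 in clones 1, 2 and 3 at passage 4 and 5.21, 5.38 and 6.32 at passage 16. Ifit1 read 3.32, 3.30 and 3.42, then 3.70, 3.68 and 5.35. All late values lay above the early ones, but those of clone 3 stood far above clones 1 and 2.

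That array also had the lowest agreement with its group. Without it, Ifi35 rose by 0.63 ± 0.18 (adjusted p = 0.017) and Irf1 by 0.54 ± 0.17 (0.023), while Ifit1 differed by 0.35 ± 0.15 and lost its call (0.12). The call of Irf1 was also lost, at adjusted p from 0.052 to 0.09, without any of the other 5 granulocyte arrays of mouse 2 at either passage. With the spread taken from these 6 arrays alone, 0 of 8 members were called, Oas1g having an adjusted p of 0.051 and Ifi202b of 0.063. The share of all probe sets called in that fit is not given, so the count is not read as a result about the members. Pluripotent markers summed to 16444 to 25373 in linear intensity in these late lines, against 29716 to 30713 in the early ones, and 4 of 10 endoderm markers were called higher. Their part in the members' values was not tested.

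In mouse 1, granulocyte lines gave the same comparison in another animal. Ifi202b read 5.43, 5.19 and 5.21 in clones 1, 2 and 3 at passage 4 and 7.42, 7.21 and 6.59 at passage 16. It rose by 1.80 ± 0.24 (3.48-fold, adjusted p = 0.00013), with no overlap. Usp18 read 3.78, 3.58 and 3.94, then 4.96, 4.97 and 4.11. It rose by 0.91 ± 0.20 (adjusted p = 0.018), clones 1 and 2 being about a unit higher and clone 3 barely above the early values. These were the 2 of 8 members called, in a comparison that called 0.888% of all probe sets. The call of Usp18 was lost in 4 of the 6 fits that left out 1 array, those without clones 1 or 2 at either passage, with adjusted p up to 0.16, and with only these groups in the fit (0.081). Whether the clone numbers pair the arrays of passages 4 and 16 is not known. With the clone number as a block the call of Usp18 was lost (adjusted p = 0.086) while that of Ifi202b was not. Oas1g differed by 0.62 ± 0.38 (adjusted p = 0.64). It read 7.06, 6.70 and 6.13 early and 7.34, 6.92 and 7.50 late, and the passages overlapped.

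Irf1 went the other way in mouse 1. Its early values of 8.84, 8.92 and 8.94 were the highest of any group, and its late values were 8.40, 8.19 and 8.40, a difference of -0.57 ± 0.16 (adjusted p = 0.081). It was called in the fit without granulocyte clone 3 of mouse 2 at passage 16 (-0.57 ± 0.15, adjusted p = 0.04). In granulocyte lines of mouse 2 the early values of 8.03, 8.0 and 7.92 were the lowest group, and the late ones were 8.44, 8.61 and 8.23. The change in mouse 1 minus that in mouse 2 was -1.01 ± 0.22 (adjusted p = 0.015). Irf1 was the 1 of 8 members called, where 2.84% of all probe sets were. The call was lost without late clone 2 of mouse 1 (-0.94, adjusted p = 0.057) and with only the granulocyte groups in the fit (0.051). At an unadjusted p under 0.05 this contrast of the mice had 6 of 8 members, against 4995 of 22626 probe sets. These were Irf1, Usp18, Ifi202b, Ifi35, Oas1g and Ifit1, with signs in both directions. Oas1g gave -1.19 ± 0.54 (adjusted p = 0.2) and Ifi202b 0.89 ± 0.33 (0.13), without passing the test. At passage 4 alone, Irf1 was higher in mouse 1 than in mouse 2 by 0.91 ± 0.16 (1.88-fold, adjusted p = 0.00077), again the 1 of 8 members called, against 6.49% of all probe sets. Endoderm markers differed as well: 5 of 10 were called higher in mouse 1 at passage 4 and 0 lower, and their sums in linear intensity were 1142 to 3657 there and 373 to 467 in mouse 2. At passage 16 the sums were 700 to 1791 in mouse 1 and 720 to 1887 in mouse 2, and 2 of 10 markers were called in the change of mouse 1 minus that of mouse 2, both lower. In the other origins of mouse 2 the markers' changes from passage 4 to 16 were smaller than their SD over clones, so their signs are not read. The markers' mean log2 level went from 5.47 to 5.27 in TTF, from 5.3 to 5.15 in T cell and from 6.79 to 6.95 in B cell lines. Its SD over clones was 0.2 to 1.05. Irf1 differed by 0.42 ± 0.16, 0.21 ± 0.16 and -0.24 ± 0.16 there, without passing the test. The part of the markers in the values of Irf1 was not tested. Granulocyte lines of the mice differ by animal, and any other difference in how they were made cannot be told apart from it.

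At passage 4, few members differed between the origins of mouse 2. The F-test over the 4 origins called Ifi35 (adjusted p = 0.0049) and Irf1 (0.02), 2 of 8 members, against 38.0% of all probe sets. Ifi35 read 5.52, 5.83 and 5.56 in TTF clones 1, 2 and 3, and 4.67, 4.76 and 4.59 in granulocyte clones. It read 4.81, 4.75 and 5.22 in B cell and 5.10, 5.17 and 5.06 in T cell clones. TTF lines were above every other array, by 0.73 ± 0.17 against the mean of the other origins (adjusted p = 0.004, 19.6% of all probe sets called). Without TTF clone 2 this was 0.63 (adjusted p = 0.053).

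Granulocyte lines were lower than the mean of the others in Ifi35, by -0.55 ± 0.17 (adjusted p = 0.023), and in Irf1, by -0.43 ± 0.13 (0.017), with 21.5% of all probe sets called. Both calls were lost without any 1 of the 3 granulocyte arrays, at adjusted p from 0.061 to 0.093 for Ifi35 and from 0.051 to 0.074 for Irf1. Irf1 read 8.36, 8.38 and 7.99 in TTF clones, 8.75, 8.66 and 8.31 in B cell clones and 8.55, 8.39 and 8.35 in T cell clones at that passage. The early TTF clone 3 reached into the range of granulocyte lines, so the groups overlapped. B cell and T cell lines had 0 of 8 members called against the other origins, where 9.68% and 17.4% of all probe sets were, and 1 (Irf1) and 0 at an unadjusted p under 0.05.

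Oas1g differed little by origin at passage 4. Its group means were 6.03 ± 0.92 (SD, n = 3) in TTF, 6.16 ± 0.60 in B cell lines, 6.14 ± 0.51 in T cell lines and 6.08 ± 0.18 in granulocyte lines (F-test adjusted p = 0.99). The SD was largest in TTF lines, whose clones ran from 5.06 to 6.89. Ranked by mean over the 11 groups, the groups next to each other overlapped in all 10 pairs for Oas1g, Ifi202b, Ifit3, Irf7 and Usp18. Neighbours in such a ranking are the groups closest in mean, so their overlap says nothing of groups further apart. The early and late arrays of Oas1g in mouse 2, for example, did not overlap.

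At passage 16, 0 of 8 members passed the F-test of origins, and 1.35% of all probe sets did. At an unadjusted p under 0.05 it was 1 of 8, Usp18 (unadjusted p = 0.0085, adjusted p = 0.14). Usp18 read 4.03, 4.67 and 4.42 in B cell clones 1, 2 and 3, and 3.60, 3.96 and 3.41 in T cell clones. TTF clones read 3.96, 3.91 and 3.80, and granulocyte clones 3.55, 4.04 and 3.99. B cell lines exceeded the mean of the others by 0.57 ± 0.16 (adjusted p = 0.56), with an overlap only between B cell clone 1 and granulocyte clone 2. The contrasts of TTF and of B cell lines called 0 probe sets of any gene at passage 16, with 1564 and 1433 at an unadjusted p under 0.05. Among these were 0 members for TTF and 2 for B cell lines, Usp18 (unadjusted p = 0.0014) and Ifi35 (-0.45 ± 0.17, unadjusted p = 0.015). Those of T cell and granulocyte lines called 0 members and 2.27% and 2.49% of all probe sets, with 1 member each at an unadjusted p under 0.05, Usp18 and Ifit1. The difference of Ifit1 in granulocyte lines was 0.58 ± 0.21, and 0.02 ± 0.13 without clone 3.

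At passage 10, the arrays were of another platform with its own scale, and Ifi202b set the origins apart. It read 6.57, 6.58 and 6.69 in TTF clones 1, 2 and 3, and 5.76, 5.57 and 5.72 in granulocyte clones. B cell clones read 6.17, 6.06 and 5.91, and T cell clones 6.13, 5.99 and 6.07. TTF lines lay above all others and granulocyte lines below, while B cell and T cell lines overlapped.

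The F-test called Ifi202b (adjusted p = 0.00043) and Ifi35 (0.0057), 2 of 7 members, against 25.7% of all probe sets. Against the mean of the others, Ifi202b was higher in TTF lines by 0.68 ± 0.07 (1.61-fold, adjusted p = 0.0017, 10.4% of all probe sets called). It was lower in granulocyte lines by -0.56 ± 0.07 (adjusted p = 0.00014, 31.8% called), and both differences stayed called without any 1 of the 12 arrays. At passage 4, on the other platform, the contrasts of Ifi202b were 0.05 ± 0.19 in TTF and -0.16 ± 0.19 in granulocyte lines, and neither passed the test.

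Ifi35 read 7.01, 6.62 and 6.79 in granulocyte clones at passage 10, below every other array. TTF clones read 7.25, 7.08 and 7.45, B cell clones 7.26, 7.16 and 7.14, and T cell clones 7.41, 7.49 and 7.44. The granulocyte lines were lower by -0.49 ± 0.09 (adjusted p = 0.0012). Ifi35 was the member called lower in granulocyte lines at both passages 4 and 10, each on its own platform. The passage 4 call was lost when any granulocyte array of that comparison was left out. At passage 16 the same contrast was 0.14 ± 0.17 and did not pass the test (adjusted p = 0.58). At passage 10, Usp18 ran from 4.78 in granulocyte clone 2 to 6.18 in T cell clone 2 and did not pass the F-test (adjusted p = 0.076). Irf1, Irf7, Ifit1 and Ifit3 had F-test adjusted p of 0.054, 0.41, 0.40 and 0.99, and the 3 granulocyte clones read 4.71 each in Irf7, just below all others. T cell lines had 0 members and 0 probe sets called against the others, with 3747 probe sets and 3 members (Irf1, Ifi35 and Usp18) at an unadjusted p under 0.05. B cell lines had 0 members and 9 probe sets called (0.0398%), and 0 members at an unadjusted p under 0.05.

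The probe set annotated to Oas1a at passage 10 read 8.84, 8.53 and 8.81 in TTF clones, 8.46, 8.53 and 8.59 in B cell, 8.61, 8.53 and 8.54 in T cell and 8.19, 8.47 and 8.19 in granulocyte clones. It was lower in granulocyte lines by -0.33 ± 0.08 (adjusted p = 0.0082), with an overlap at clone 2.

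**Figure D3:**
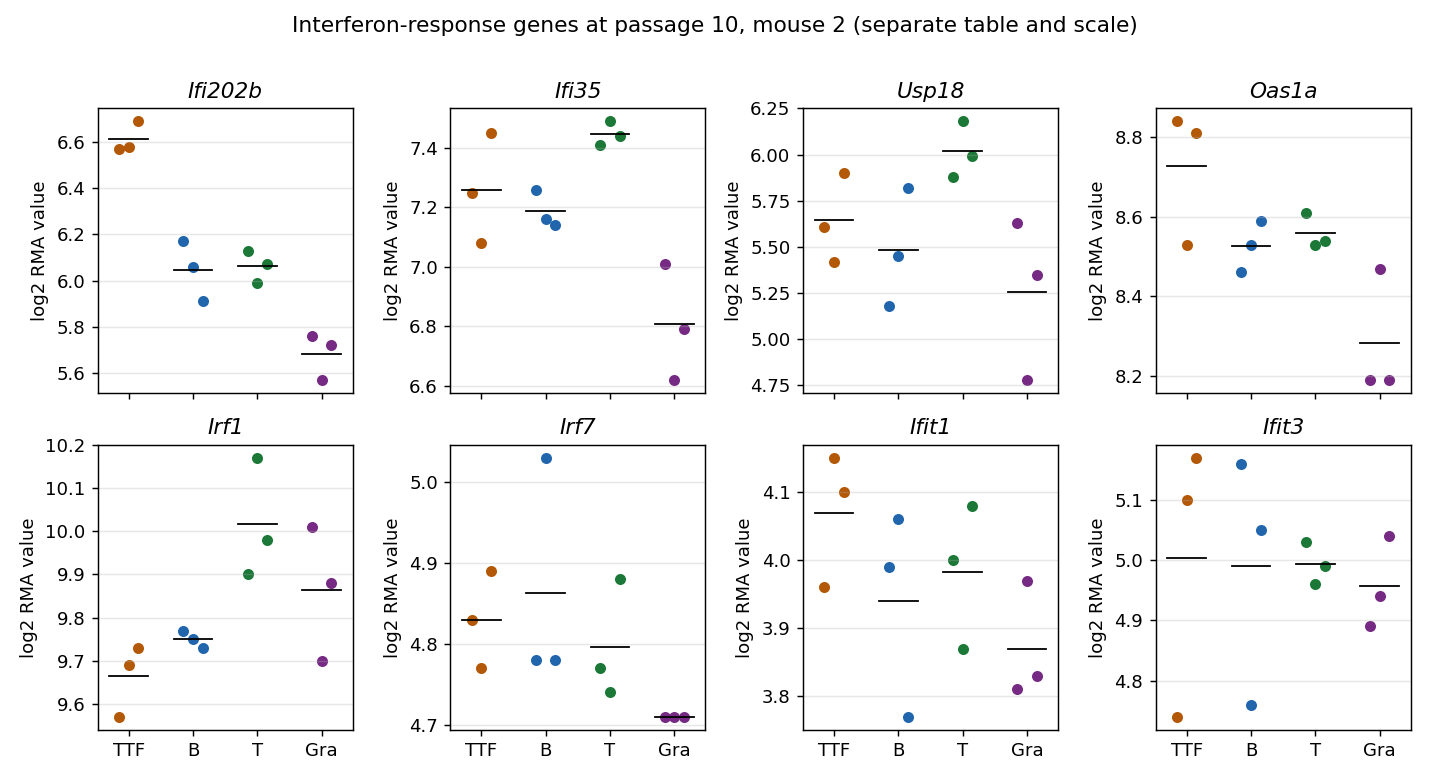
Log2 RMA value (y axis) of 7 members and of the probe set annotated to Oas1a in each of the 12 arrays of passage 10, by origin on the x axis, with the group mean as a bar and a y axis of its own in each panel. Ifi202b runs from 5.57 in a granulocyte line to 6.69 in a TTF line, and granulocyte lines lie below the others in Ifi35 as well.

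Lines from skeletal muscle precursors existed at passage 6 only and were set against granulocyte lines of mouse 1 at passage 4, so origin and passage differ together. Ifi202b was higher in them by 0.73 ± 0.24 (adjusted p = 0.027), the 1 of 8 members called, against 20.6% of all probe sets. It read 6.16, 5.91 and 5.95 in muscle precursor clones, above all granulocyte clones. The call was lost in 5 of the 6 fits that left out 1 array, all but that without granulocyte clone 1, at adjusted p up to 0.091. With only these 6 arrays in the fit, 6 of 8 members were called. The share of all probe sets called in that fit is not given, and the 20.6% belongs to the fit with all groups. The count of 6 is therefore not read as a result about the members. Oas1g was at 5.80, 5.81 and 6.09, below the granulocyte clones, and Irf1 at 8.54, 8.49 and 8.43, also below, without passing the test (adjusted p = 0.20 and 0.067). Ifit1 at 3.84, 4.21 and 4.32 lay above, also without passing (0.19). In the fit without granulocyte clone 3 of mouse 2 at passage 16, Ifit1 (0.50 ± 0.14, adjusted p = 0.008) and Irf1 (-0.41 ± 0.15, 0.043) were called as well. Of 10 endoderm markers, 5 were called lower in muscle precursor lines, and their part was not tested.

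Fibroblast and feeder markers moved in some of the same comparisons. Arrays measure a whole culture, so more cells that hold a transcript and more transcript per cell cannot be told apart. The mean log2 level of the 17 measured markers went from 6.82 to 7.49 between passages 4 and 16 in TTF lines, from 6.76 to 7.45 in B cell lines, from 7.1 to 7.38 in granulocyte lines of mouse 2 and from 6.92 to 7.53 in granulocyte lines of mouse 1. In T cell lines it went down, from 7.78 to 6.80, with 8 of 17 markers called lower and 0 higher. There Oas1g rose by 1.58, while Ifi202b had its smallest difference among the origins of mouse 2. This was 0.62 ± 0.24 and did not pass the test (limma, adjusted p = 0.074). At passage 10 the 20 measured markers averaged 9.02 for TTF lines, 8.54 for T cell lines, 8.41 for B cell lines and 7.99 for granulocyte lines, the same ends of the order as Ifi202b. In muscle precursor lines, 10 of 17 were called higher than in early granulocyte lines of mouse 1. In linear intensity the markers' sum ran from 4546 to 6075 in those early granulocyte lines and from 8465 to 9504 in muscle precursor lines. The part of these cells in the members' values was not tested.

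Other interferon-stimulated genes formed the longest list of the pathway. Of 50 measured interferon-stimulated genes outside the members, 26 were called higher and 2 lower on average over the origins, with a median of 0.27, and 28 and 1 without granulocyte clone 3 at passage 16 (median 0.28). Over all probe sets 15.0% were higher, 14.4% lower and the median was 0.05. The list, like the members, was chosen with earlier results of these data known. Parp14, an ADP-ribosyltransferase, rose by 1.07 ± 0.14 (adjusted p = 6.5e-06), Oas1c, a relative of Oas1g, by 0.83 ± 0.19 (0.0016) and Gbp3, a guanylate-binding GTPase, by 0.78 ± 0.21 (0.0075). The exonuclease gene Isg20 fell by 0.91 ± 0.17 (adjusted p = 0.00029). By origin, 13 of the 50 were called higher and 1 lower in TTF lines, 5 and 0 in B cell lines, 4 and 4 in T cell lines and 23 and 1 in granulocyte lines of mouse 2 (19 and 1 without clone 3). The shares of all probe sets called higher were 4.83%, 5.0%, 7.07% and 18.3%. In granulocyte lines of mouse 1 it was 2 and 0, against 0.566% of all probe sets called higher: Lgals3bp (0.88 ± 0.17) and Trim30a (0.71 ± 0.16).

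The remaining lists hold genes that start, relay or limit the response. Of 11 measured interferon ligands, 1 was called higher on average, Ifna4 at 0.27 ± 0.10 (adjusted p = 0.049), and 0 were without granulocyte clone 3 at passage 16, when 1 was lower. In granulocyte lines of mouse 2 it was 4 of 11, among them Ifnb1 at 0.65 ± 0.21 (adjusted p = 0.019), and 0 without that array. Of 10 receptor and JAK-STAT genes, the receptor chain Ifngr1 rose by 0.46 ± 0.11 (0.002) and Irf9, a transcription factor gene of the response, fell by 0.55 ± 0.11 (0.0008). Of 13 sensors of nucleic acid, Zbp1 rose by 0.69 ± 0.14 and Tlr3 by 0.53 ± 0.08, while the ubiquitin ligase gene Trim25 fell by 0.49 ± 0.13. Of 13 negative regulators 3 were called higher and 2 lower, and of 9 genes of class I antigen presentation 4 and 2, with the immunoproteasome gene Psmb8 at 0.54 ± 0.15 (0.0091).

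**Figure D4:**
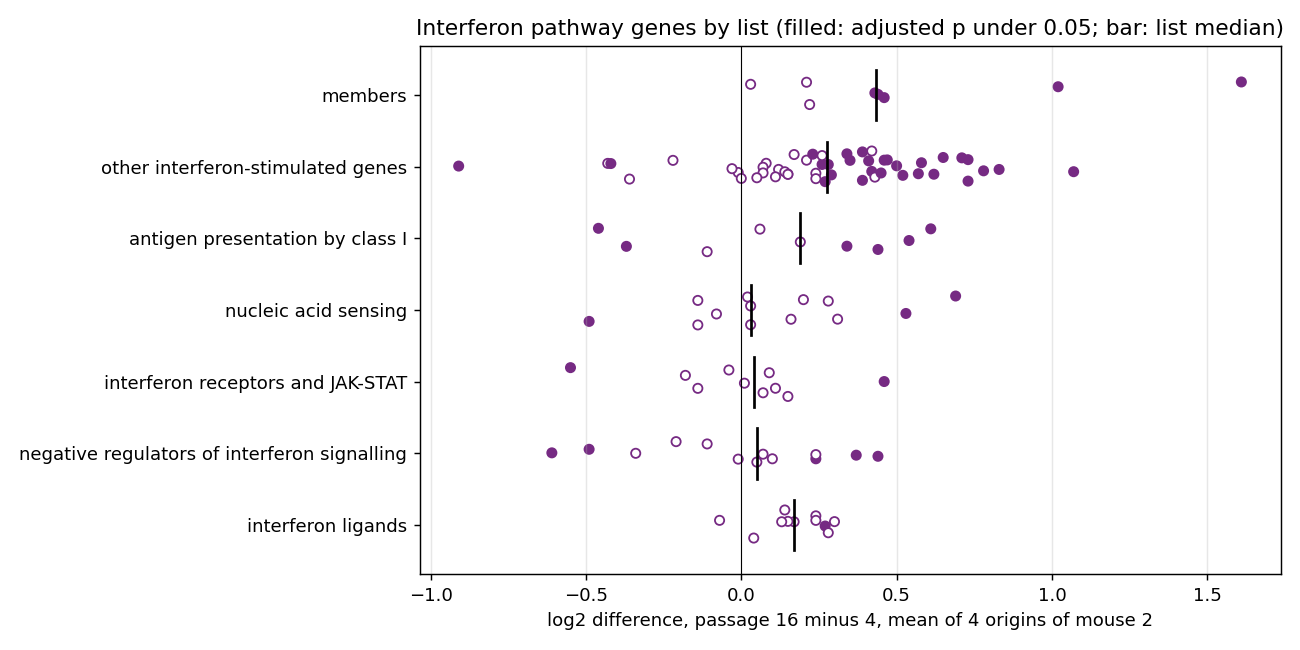
Log2 difference between passages 16 and 4, averaged over the 4 origins of mouse 2 (x axis), for each measured gene of the 8 members and of 6 other interferon lists (rows), filled where the adjusted p was under 0.05, with the list median as a bar. The medians are 0.44 for the members, 0.27 for the other interferon-stimulated genes and 0.04 for receptors and JAK-STAT genes, and Isg20 at -0.91 is the lowest gene.

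At passage 10 the other interferon-stimulated genes did not move one way. In granulocyte lines 7 of 51 were called higher and 13 lower than the mean of the other origins, with a median of -0.09, where 16.6% of all probe sets were higher and 15.2% lower. Ifi30, a thiol reductase of lysosomes, was higher by 1.53 ± 0.12 and the transcription factor gene Irf8 by 1.39 ± 0.08, while Rtp4 was lower by -0.98 ± 0.17, a value that 1 of its 2 probe sets gave. Outside these 51, the RNA sensor gene Ifih1, of the list of nucleic acid sensors, was lower by -0.81 ± 0.13.

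The members varied together only in part. Over the 33 arrays Pearson's r between pairs of the 8 members ran from -0.34 to 0.79 with a median of 0.29 over 28 pairs. The closest pair was Ifit3 and Irf7 (0.79, and 0.69 without granulocyte clone 3 at passage 16), and Oas1g with Ifi202b gave 0.61. Within groups, as deviations from the group means, the median was 0.10, Ifit3 and Irf7 gave 0.74, and Oas1g with Ifi202b gave 0.00. At passage 10 the median over 21 pairs was 0.22 in 12 arrays, and Ifi35 with Usp18 gave the highest value, 0.82. Ifit3 with Irf7 gave -0.29 there, and Ifi35 with Usp18 gave -0.13 over the 33 arrays, so neither pairing held in both. These r share arrays and their normalization and are descriptions.

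Among 5897 variable genes, the 6 whose values followed the members' mean most closely over the 33 arrays were Gsn, Phf21a, Sema3a, Pkig, Acss2 and Tmem160, with r from 0.84 to 0.86. At passage 10 they were Nrarp, Tmem176b, Id3, Dll3, Nsg1 and Pea15a among 6193 genes, with r from 0.94 to 0.98 over 12 arrays. None of these is in an interferon list. Of the other interferon-stimulated genes, 30 were variable enough to be ranked at passages 4, 6 and 16, with a median r of 0.35 (0.07 over all ranked genes), and 37 at passage 10, with 0.42 (-0.06 over all).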

How the data were processed

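RNA of 45 iPSC cultures was measured on Affymetrix expression arrays of 2 platforms. The authors deposited log2 intensities of probe sets, computed by RMA per the submitters' processing notes, as 2 tables, of 33 arrays (passages 4, 6 and 16) and 12 arrays (passage 10). RMA's version is not given in the sources used here. The tables were normalized separately, so no contrast crosses them. Symbols came from the platform annotation: 18003 probe sets had 1 symbol, 287 several and 4400 none in the first table, and 20393, 691 and 1606 in the other. Control probe sets were left out, and no filter on dim ones was applied.

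Each table was fitted on its own with limma 3.58.1 in R 4.3.3 (lmFit, contrasts.fit, eBayes), with 1 mean per group, n = 3 clones and 22626 probe sets. All p-values are two-sided, from this model or its moderated F-tests. Adjustment was by Benjamini-Hochberg over all probe sets, and an adjusted p under 0.05 was called. The fit was tested on simulated data. Members were described whole, and of other lists up to 4 called genes with the largest change were named per comparison, a gene with several probe sets standing by its brightest. The members and lists were chosen with earlier results of these data known. Likeness was Pearson's r with the mean of the members' centred values, over genes at or above the median SD. Figures used Python 3.11.15 and matplotlib 3.10.9.

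Alternatives were quantile and cyclic loess normalization, 1 probe set per gene, only bright probe sets, a variance trend with a robust prior, only the groups compared, the clone number as a block, and leaving out each array. Leaving out the array that stands apart from every comparison of the first table was added after seeing the data. Deviations of same-numbered arrays at passages 4 and 16 correlated from -0.348 to 0.378 over 15 lines (median 0.146). In granulocyte lines of mouse 1 all 3 (0.324, 0.146 and 0.173) exceeded 0.1. Same-numbered arrays of different origins, which cannot be the same line, ran from -0.413 to 0.52 (median 0.088). Of those 36 pairs 17 exceeded 0.1, so whether the numbers name the same line at both passages is not known. Dates and batches are not in the labels used here, and a batch that falls together with a group cannot be told apart from that group. Precision is limited by the number of arrays.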

Additional observations from a re-analysis of the deposited data

Results flagged for a closer look

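The change of Irf1 between passages 4 and 16 differed between the mice by the test of the difference itself. In granulocyte lines, mouse 1 minus mouse 2 was -1.01 ± 0.22 on the log2 scale (limma, adjusted p = 0.015), from a difference of -0.57 ± 0.16 in mouse 1, where all late clones lay below the early ones, and 0.44 ± 0.16 in mouse 2, where all lay above. Without late clone 3 of mouse 2 it was -1.11 ± 0.22 (adjusted p = 0.01), and over the 12 fits that left out 1 array it ran from -1.11 to -0.92. The call was lost without late clone 2 of mouse 1 (adjusted p = 0.057) and with only the granulocyte groups in the fit (0.051). The mean log2 level of 10 endoderm markers went from 7.0 to 6.29 in mouse 1 and from 5.25 to 6.24 in mouse 2, and their part in the difference was not tested. Each side is 1 animal.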

How the results depend on the processing

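Counts of members called are given here with the count of the fit described above in parentheses. Quantile normalization and cyclic loess each gave 2 (1) for passage in T cell lines, 1 (0) for unequal change among origins and 2 (1) for the difference of the mice in passage change. With only probe sets above the median mean, where fewer members were tested, origins at passage 4 gave 1 (2), TTF lines 0 (1) and granulocyte lines 1 (2) at that passage. Passage then gave 1 (2) in TTF and in B cell lines, 2 (5) in granulocyte lines of mouse 2, 0 (2) in those of mouse 1 and 2 (5) on average, and unequal change 1 (0). At passage 10 TTF lines gave 0 (1) and granulocyte lines 1 (2). Whether the clone numbers pair the samples is not known. Over all 15 lines, 8 matched their own number best among the 3 late arrays of their group. Some would do so without any pairing, so the count does not settle it. With the clone number as a replicate block, passage gave 1 (2) in B cell lines and 1 (2) in granulocyte lines of mouse 1, and muscle precursor lines gave 2 (1). With only the groups compared in the fit, passage gave 1 (2) in TTF lines and 0 (5) in granulocyte lines of mouse 2, the difference of the mice in passage change 0 (1), muscle precursor lines 6 (1) and the mice at passage 4 gave 2 (1). Without the array of granulocyte clone 3 of mouse 2 at passage 16, origins gave 3 (2), TTF lines 2 (1), B cell lines 1 (0) and granulocyte lines 3 (2) at passage 4, and muscle precursor lines 3 (1). Passage then gave 3 (2) in B cell lines, 2 (1) in T cell lines, 4 (5) in granulocyte lines of mouse 2, 3 (2) in those of mouse 1 and 5 (5) on average, with Irf1 called in place of Irf7, and unequal change 1 (0). In that fit 3169 of 22626 probe sets were higher and 3184 lower for TTF lines at passage 4, against 4431 called with the array. For granulocyte lines at that passage it was 3248 and 3481, against 4874. For passage it was 2339 and 2094, against 7825, in granulocyte lines of mouse 2, and 3488 and 3352, against 6661, on average. For the other counts in this section no share of all probe sets is given, so they are not read as results about the members. The causes were not tested. Leaving out each array in turn gave 4 to 6 (5) for passage on average, 1 to 4 (2) in B cell lines, 1 to 2 (2) in TTF lines, 1 to 2 (1) in T cell lines, 1 to 2 (2) in granulocyte lines of mouse 1 and 0 to 2 (0) for unequal change. It gave 0 to 5 (1) for the difference of the mice in passage change, with 5 where late clone 2 of mouse 2 was left out. It gave 0 to 1 (1) for muscle precursor lines. At passage 4 it gave 1 to 2 (2) for origins, 0 to 1 (1) for TTF, 0 to 1 (0) for B cell and 0 to 2 (2) for granulocyte lines. At passage 16 it gave 0 to 2 (0) for origins and 0 to 2 (0) for granulocyte lines, and at passage 10, 2 to 4 (2) for origins and 0 to 1 (0) for T cell lines. Of 461 values of called members under the alternatives, 412 stayed called, 49 did not pass the test and 0 changed sign. Each group is 3 clones of 1 animal, members at the low end of the intensity range have no detection call, and the probe set of Oas1g cannot be told apart from a paralogue.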
